A study of Arabidopsis thaliana with 22 samples.

Results

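The comparison described here set *bes1-D* seedlings against WT seedlings when both had been grown with brassinazole (BRZ), an inhibitor of brassinosteroid (BR) synthesis. Its members are the 3 libraries labelled *bes1-D* with 250 nM BRZ (replicates 1, 3 and 5) and the 3 labelled WT with 250 nM BRZ (replicates 1 to 3), 6 of the 22 libraries of the series, and they were chosen by their labels alone. WT was Arabidopsis Col-0. *bes1-D* carries a gain-of-function mutation in the PEST domain of BES1 that stabilizes the protein, in a line in which the mutation had been moved into Col-0. All libraries came from whole seedlings 7 days old that had grown on sucrose-containing medium, and the labels describe the light as long days in one field and as continuous in another. The same genotypes without BRZ (4 WT and 4 *bes1-D* libraries, on DMSO control plates) served for comparison. For a few genes the 4 libraries of *baf1* with 250 nM BRZ were also used. *baf1* is a T-DNA insertion line in Col-0 that lacks the F-box protein BAF1, and it was grown in the same way. QuantSeq, which reads the 3′ ends of polyadenylated transcripts, gave one normalized read number per gene and library.

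BRs are steroid hormones that promote cell elongation, division and vascular development. Binding of BR to the receptor kinase BRI1 and its co-receptor BAK1 leads to inactivation of the GSK3-like kinase BIN2, after which the transcription factors BES1 and BZR1 accumulate in the nucleus. They bind E-boxes and the BR response element (CGTGTG or CGTGCG), activate growth genes and repress the genes of BR synthesis. BRZ blocks a cytochrome P450 step of that synthesis, so WT seedlings on BRZ are low in BR and short, whereas *bes1-D* keeps active BES1.

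Genes averaging 10 or more normalized reads across the 6 libraries were tested, 16294 in all, and 1801 (11.1%) differed between *bes1-D* and WT under BRZ at a Benjamini-Hochberg adjusted p under 0.05 in limma. Of these, 938 (5.76% of all genes tested) were higher in *bes1-D* and 863 (5.3%) were lower. The genes that fell moved further: 384 of them changed more than 2-fold and 73 more than 4-fold, against 208 and 21 of those that rose. The median change of the called genes was 1.755-fold, and in 1722 of them no *bes1-D* library overlapped a WT library, as was true of 4542 genes (27.9%) in all. At the looser criterion of an unadjusted p under 0.05 and a fold change over 1.1, 3973 genes (24.4%) were called, 2229 higher and 1744 lower. Single libraries moved the number called: it was 1095 without WT replicate 1, 994 without WT replicate 3 and 1065 without *bes1-D* replicate 5.

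The level of *BES1* itself did not tell the genotypes apart. *BES1* (AT1G19350, chromosome 1) had 548, 497 and 515 normalized reads in the WT libraries and 579, 439.7 and 405 in *bes1-D* (log2 fold change −0.15, SE 0.15, adjusted p = 0.591), and the groups overlapped. The mutation stabilizes the protein, and read numbers per gene do not show the sequence, so these values do not check the label. *BAF1*, which encodes that F-box protein, had 265, 317 and 218 normalized reads in WT and 209.7, 285 and 202 in *bes1-D* (log2 fold change −0.199, SE 0.17, adjusted p = 0.525).

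Most genes of BR synthesis fell in *bes1-D*. Of 6 tested, 4 fell (66.7%, against 5.3% of all genes tested) and 0 rose. The median log2 fold change was −2.03, against 0.04 over all genes tested. *DWF4*, a side-chain hydroxylase that limits the rate of the pathway, had 196, 225 and 265 normalized reads in WT and 23.1, 39.8 and 47.2 in *bes1-D* (log2 fold change −2.66, SE 0.23, adjusted p = 9.36e-08). *CPD*, another P450 of the pathway, had 519, 512 and 452 in WT and 123, 98.1 and 111 in *bes1-D* (log2 fold change −2.15, SE 0.15, adjusted p = 4.37e-09). In both genes every *bes1-D* library lay far below every WT library. *BR6OX2*, which makes the last steps to brassinolide, had 202, 149 and 227 in WT and 39.6, 27.7 and 62.3 in *bes1-D* (log2 fold change −2.19, SE 0.24, adjusted p = 2.61e-06). *ROT3*, another hydroxylase, had 62.4, 36.6 and 63.5 in WT and 16.5, 17.6 and 8.05 in *bes1-D* (log2 fold change −1.901, SE 0.33, adjusted p = 0.00062). The groups did not overlap in either gene. *DET2*, a steroid reductase, had 88.6, 101.3 and 95.1 in WT and 60.6, 49.1 and 75.3 in *bes1-D*, which did not overlap but did not pass the test (log2 fold change −0.64, SE 0.21, adjusted p = 0.0516). *CYP90D1* had 15.9, 24.8 and 37.4 in WT and 10.3, 14.95 and 16.1 in *bes1-D*, and the groups overlapped (log2 fold change −0.81, SE 0.37, adjusted p = 0.174). *BR6OX1* had a mean below the minimum and was not tested.

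**Figure D1:**
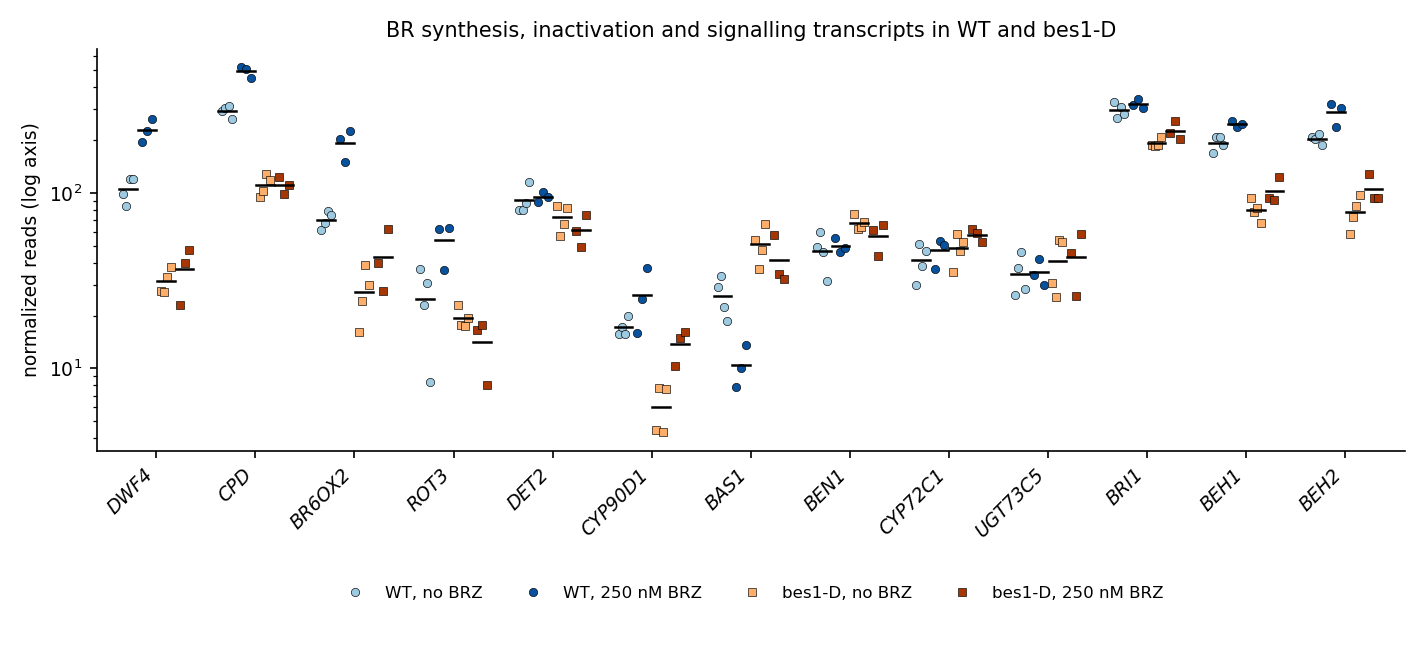
Normalized reads (log axis) of genes of BR synthesis, inactivation and signalling in WT and *bes1-D*, each without BRZ and with 250 nM BRZ. Each point is a library and each bar the group mean. For *DWF4*, *CPD*, *BR6OX2* and *ROT3*, the 3 *bes1-D* libraries on BRZ lie below all 3 WT libraries on BRZ, and *BAS1* shows the opposite order.

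Among 4 genes of BR inactivation, 1 rose (25%, against 5.76% of all genes tested) and 0 fell. *BAS1*, a P450 that inactivates BRs by hydroxylation, had 7.79, 10.02 and 13.6 normalized reads in WT and 57.2, 34.7 and 32.1 in *bes1-D* (log2 fold change 1.87, SE 0.34, adjusted p = 0.000929), so that the lowest *bes1-D* library was above the highest WT library. *CYP72C1*, *UGT73C5* and *BEN1* did not pass the test, with log2 fold changes of 0.31, 0.22 and 0.17. Of 9 sterol genes upstream of BR, 0 rose and 2 fell (22.2%, against 5.3% of all genes tested). *CYP51G1*, a sterol demethylase, had 418, 429 and 409.5 in WT and 299.7, 283 and 269 in *bes1-D* (log2 fold change −0.56, SE 0.14, adjusted p = 0.00982), and *SMT3*, a sterol methyltransferase, had 173, 220.1 and 262 and 136, 136 and 146 (log2 fold change −0.63, SE 0.17, adjusted p = 0.0201).

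In BR signalling, 3 of 12 tested genes fell (25%, against 5.3% of all genes tested) and 0 rose. The 3 were the receptor gene *BRI1* and the *BES1* homologs *BEH1* and *BEH2*. *BEH2* had 321, 237 and 306 normalized reads in WT and 127, 94.2 and 93.4 in *bes1-D* (log2 fold change −1.45, SE 0.18, adjusted p = 7.69e-06). *BEH1* had 256, 236 and 247 in WT and 93.01, 91.6 and 123 in *bes1-D* (log2 fold change −1.27, SE 0.17, adjusted p = 2.16e-05). *BRI1* had 319, 343 and 306 in WT and 219, 258 and 203 in *bes1-D* (log2 fold change −0.51, SE 0.15, adjusted p = 0.0282), without overlap but with a smaller change.

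Sequences near the starts of some of these genes, all with a match, are shown because BES1 is known to bind the BR response element in its targets. They were read from RefSeq assembly TAIR10.1 by locus, 5′ to 3′ on the strand of the gene. Capitals mark the response element (CGTGTG or CGTGCG) and, in the windows of 300 bases, also the motif CACGTG. Both strands were searched, so that CACACG and CGCACG are the same elements read on the other strand. CACGTG and the response element overlap by 4 bases in CACACGTG. The stretches of 26 bases come from a search of 1000 bases before to 200 after the annotated start. In the window of 250 bases before to 50 after it, *DET2*, *DWF4*, *CPD*, *ROT3*, *CYP90D1*, *BR6OX2*, *BEH1* and *BRI1* each held 0 response elements. Around the annotated starts of *DWF4* (chr3:18817848-18817873, minus strand, 458 bases before the start), *CPD* (chr5:1706771-1706796, minus strand, 162 bases after it), *ROT3* (chr4:17192905-17192930, minus strand, 413 before) and *BEH1* (chr3:18863741-18863766 and chr3:18863737-18863762, minus strand, 359 and 355 before), these stretches of 26 bases were found. Each line capitalizes a single element, and those of *BEH1*, on the first and second of its lines, overlap.
DWF4: tgtctttgacCGCACGctcgtgtagg
CPD: agaaacccccCGTGTGcccactctcc
ROT3: acttaattacCGTGTGatacagtcaa
BEH1: gtttctgtgtCGCACGtgtgtggcac
BEH1: ctgtgtcgcaCGTGTGtggcacacac

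The window of 250 bases before to 50 after the annotated start of *BEH2* (chr4:17334306-17334605, minus strand) held CGTGTG at 82, 63 and 59 bases before the start, CGTGCG at 135 bases and CACGTG at 115, 80 and 61 bases. The window of *ACS11* (chr4:4886712-4887011, plus strand), a gene with one of the largest falls, held CGTGTG at 158 and 120 bases before the start. That of *EXPA1* (chr1:26141476-26141775, plus strand), an expansin gene that rose, held it once, at 226 bases.
BEH2: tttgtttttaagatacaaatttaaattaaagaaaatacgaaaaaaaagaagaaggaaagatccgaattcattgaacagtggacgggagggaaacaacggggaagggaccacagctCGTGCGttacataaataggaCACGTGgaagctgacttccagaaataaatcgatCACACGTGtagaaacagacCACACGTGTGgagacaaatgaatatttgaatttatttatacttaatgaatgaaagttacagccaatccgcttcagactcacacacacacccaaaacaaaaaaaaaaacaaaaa
ACS11: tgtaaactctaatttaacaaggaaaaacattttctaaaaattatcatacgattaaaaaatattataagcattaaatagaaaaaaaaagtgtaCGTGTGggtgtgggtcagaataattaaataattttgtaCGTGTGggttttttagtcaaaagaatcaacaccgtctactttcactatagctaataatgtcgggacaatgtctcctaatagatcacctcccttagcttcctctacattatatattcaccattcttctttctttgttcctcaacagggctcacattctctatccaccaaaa
EXPA1: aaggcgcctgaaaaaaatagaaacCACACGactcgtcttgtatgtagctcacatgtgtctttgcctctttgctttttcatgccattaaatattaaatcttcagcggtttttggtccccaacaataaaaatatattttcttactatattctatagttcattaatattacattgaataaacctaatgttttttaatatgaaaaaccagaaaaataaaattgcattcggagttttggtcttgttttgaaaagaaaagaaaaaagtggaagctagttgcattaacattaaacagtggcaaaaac

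Over 16293 such windows, CGTGTG or CGTGCG occurred in 8.46% of all genes tested, in 12.9% of the genes called lower in *bes1-D* and in 6.29% of those called higher. CACGTG occurred in 8.89%, 11% and 8.0%. In a window from 1000 bases before to 200 after the start, the response element was in 26.6% of all genes, 35.0% of those lower and 22.8% of those higher, and in 4 of the 6 BR synthesis genes tested. Those 4 included *CYP90D1*, which was not called, and did not include *BR6OX2*, which fell. In BR signalling it was also found near *BAK1*, *BSK1* and *BZR1*, which were not called, and near *BRI1*. A match says that the letters are there and was not tested as a binding site.

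The largest changes fell mostly on chromosome 1. Among the 10 largest rises, *AT1G06103* had 0, 3.51 and 4.85 normalized reads in WT and 285, 299 and 316 in *bes1-D* (log2 fold change 6.66, SE 0.44, adjusted p = 2.15e-09), and *AT1G27580* had 0, 6.54 and 6.66 and 175, 158 and 154 (log2 fold change 5.397, SE 0.52, adjusted p = 3.94e-07). These genes overlap by 108 bases on the same strand, so that their reads may be shared between them. With WT at or near 0 reads, their fitted changes rest on few reads: leaving out one library moved them between 5.87 and 7.15 and between 4.42 and 5.89. *MRD1* (AT1G53480) had 15.1, 31.7 and 13.98 in WT and 544, 733 and 465 in *bes1-D* (log2 fold change 4.84, SE 0.25, adjusted p = 2.94e-11), and it overlaps *HEI10* and *AT1G07887* on the opposite strand. *AT3G05170*, annotated as a phosphoglycerate mutase family gene, had 2.89, 6.18 and 6.09 and 66.4, 71.8 and 61.3 (log2 fold change 3.53, SE 0.35, adjusted p = 5.38e-07). The other rises were *AT1G28610*, *AT3G44970*, *AT1G06273*, *AT1G26530*, *AT1G31550* and *AT1G31850*, with log2 fold changes of 3.24, 3.21, 2.85, 2.83, 2.81 and 2.54. *AT1G06273*, *AT1G26530* and *AT1G31850* overlap neighbouring genes.

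*ECS1* (AT1G31580) was the most abundant gene among the 10 largest falls, with 2974, 2518 and 2799 normalized reads in WT and 111, 102 and 82.4 in *bes1-D* (log2 fold change −4.81, SE 0.14, adjusted p = 1.88e-15). *QQS*, an orphan gene that affects starch content, had 199, 202 and 131 in WT and 8.49, 6.88 and 6.04 in *bes1-D* (log2 fold change −4.44, SE 0.27, adjusted p = 5.18e-10). *ACS11* encodes an enzyme of ethylene synthesis and was the single one of 10 tested genes of that list to fall (0 rose). Calls in that list (10%) were near the 11.1% over all genes tested. *ACS11* had 46.7, 38.6 and 27.8 in WT and 0.112, 0.489 and 0.011 in *bes1-D*. Set against a floor of 3 reads per library, this was at least 12.6-fold lower, and on the same terms *AT2G04885* (86.6, 70.3 and 70.9 in WT) was at least 25.3-fold and *AT1G23960* (49.4, 55.3 and 63.98) at least 18.7-fold lower, since all their *bes1-D* libraries were under 3 reads. *AT1G63360* had 117, 115 and 111 in WT and 0, 3.38 and 2.03 in *bes1-D* (log2 fold change −5.603, SE 0.45, adjusted p = 2.77e-08). It and its neighbour *AT1G63350*, at least 9.52-fold lower, are resistance genes of one class (CC-NBS-LRR), and reads may be split between such close copies. *RTFL21*, *WAK2*, a wall-associated kinase gene, and *AT1G21400* completed the falls, with log2 fold changes of −4.06, −3.96 and −3.88. *WAK2* overlaps *AT1G21280* on the opposite strand.

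**Figure D2:**
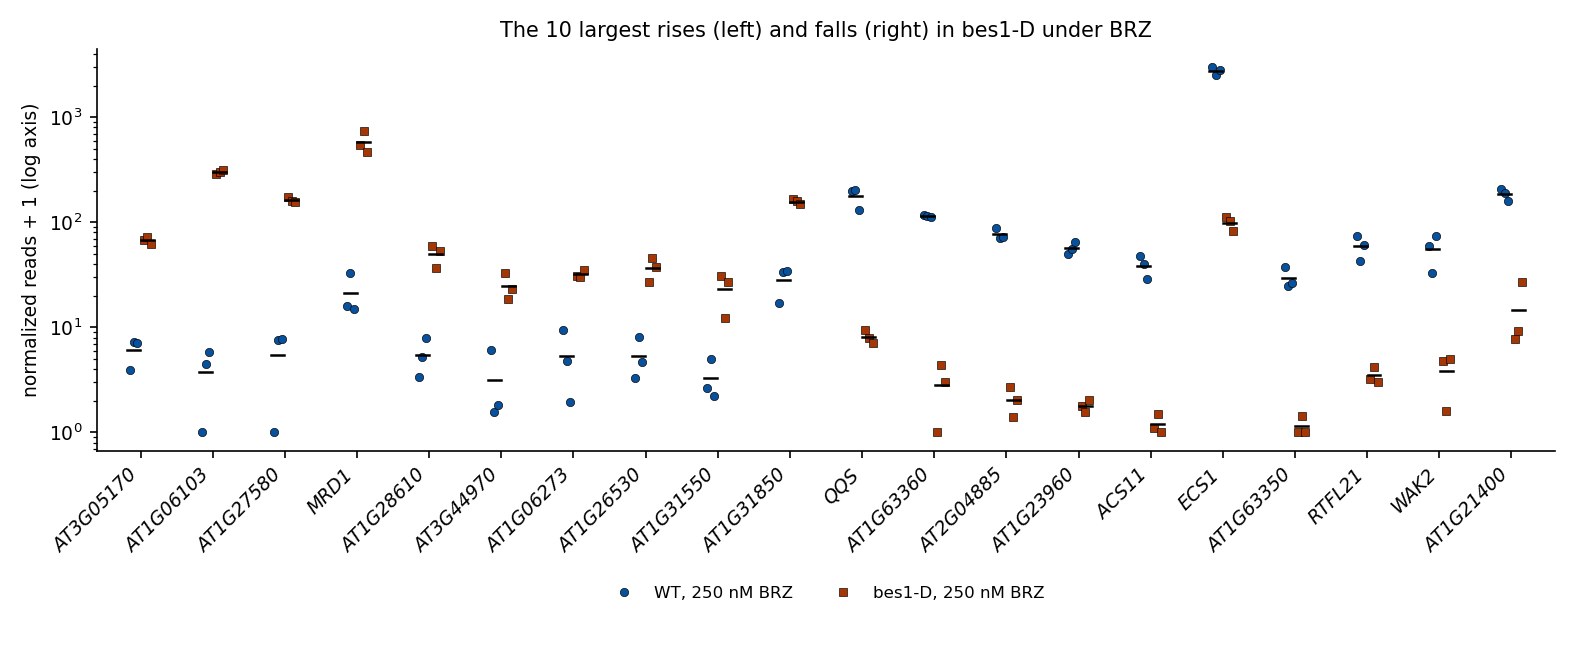
Normalized reads plus 1 (log axis) of the 10 genes with the largest rise (left) and the 10 with the largest fall (right) in *bes1-D* against WT, both on BRZ. Each point is a library, and in all 20 genes the groups are separate, as the rule for choosing them required.

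Of these genes, 2 rises and 2 falls were also called in *baf1* against WT under BRZ, a comparison that uses the same WT libraries and called 8 of 16379 genes (918 at an unadjusted p under 0.05). The group mean in *baf1* with BRZ was 615 normalized reads for *MRD1*, 55.7 for *AT3G05170*, 6.29 for *QQS* and 0.624 for *AT2G04885*. In *bes1-D* with BRZ the means were 581, 66.5, 7.14 and 1.05, and in WT with BRZ they were 20.3, 5.06, 178 and 75.9.

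Cell wall genes moved in both directions. Expansins loosen cell walls during growth, and 4 of 14 tested rose and 2 fell (42.9% called, against 11.1% over all genes tested). *EXPA1* had 447, 422 and 475 normalized reads in WT and 1001, 944 and 1109.8 in *bes1-D* (log2 fold change 1.18, SE 0.13, adjusted p = 2.15e-06). *EXPA11* had 184, 154 and 124 and 332, 351 and 366 (log2 fold change 1.195, SE 0.16, adjusted p = 3.11e-05), and *EXPA15* and *EXPA8* were the other 2 that rose. *EXPA7*, a root hair expansin, and *EXPA16* fell, with log2 fold changes of −0.87 and −1.16. Of 23 xyloglucan endotransglucosylase/hydrolase (XTH) genes, whose products cut and rejoin wall xyloglucan, 2 rose and 6 fell (34.8% called). *XTH15* fell from 279, 313 and 321 in WT to 61.7, 51.8 and 60.3 in *bes1-D* (log2 fold change −2.37, SE 0.17, adjusted p = 4.37e-09) and *XTH6* from 504, 490.0 and 479 to 209, 190.0 and 149 (log2 fold change −1.44, SE 0.15, adjusted p = 1.37e-06). *XTH30* and *XTH24* also fell, by 1.00 and 1.06 on the log2 scale, whereas *XTH7* and *XTH9* rose. *CESA5*, a subunit of the cellulose synthase of primary walls, was the 1 of 8 cellulose synthase genes called (12.5%, against 11.1% over all genes tested). It had 476, 469 and 482 in WT and 736, 928 and 823 in *bes1-D* (log2 fold change 0.79, SE 0.13, adjusted p = 0.0004).

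Auxin response genes were also called in both directions, with falls in the GH3 family and a mix among SAUR genes. Calls made up 41.7% of the Aux/IAA and GH3 genes tested and 27.9% of the SAUR genes, against 11.1% over all genes tested. Of 5 tested GH3 genes, which conjugate auxin to amino acids, 4 fell and 0 rose, with a median log2 fold change of −1.41. *GH3.5* had 279, 257 and 303 normalized reads in WT and 50.5, 35.01 and 59.3 in *bes1-D* (log2 fold change −2.54, SE 0.20, adjusted p = 1.72e-08), and *GH3.6* had 357, 248 and 331 and 114, 78.6 and 79.4 (log2 fold change −1.77, SE 0.19, adjusted p = 1.16e-06). Among 19 Aux/IAA genes, which encode repressors of auxin response, 5 fell and 1 rose. *IAA29* had 80.6, 69.5 and 53.6 in WT and 12.3, 5.77 and 8.06 in *bes1-D* (log2 fold change −2.86, SE 0.32, adjusted p = 2.96e-06), and *IAA2*, which was more abundant, had 1779, 1232 and 1276 and 744, 619.8 and 624 (log2 fold change −1.09, SE 0.15, adjusted p = 3.15e-05). *IAA19* was the 1 that rose, with 11.6, 15.9 and 18.9 in WT and 34.4, 47.9 and 57.2 in *bes1-D*. The SAUR family, small proteins that promote cell expansion, had 7 higher and 5 lower of 43 tested. *SAUR16* had 87.8, 76.02 and 104 in WT and 225, 145 and 225 in *bes1-D* (log2 fold change 1.12, SE 0.20, adjusted p = 0.000549), and *SAUR12* and *SAUR26* rose by 1.82 and 1.76 on the log2 scale. *SAUR36* had 70.1, 57.4 and 55.3 and 26.8, 9.32 and 16.1 (log2 fold change −1.86, SE 0.32, adjusted p = 0.000532).

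**Figure D3:**
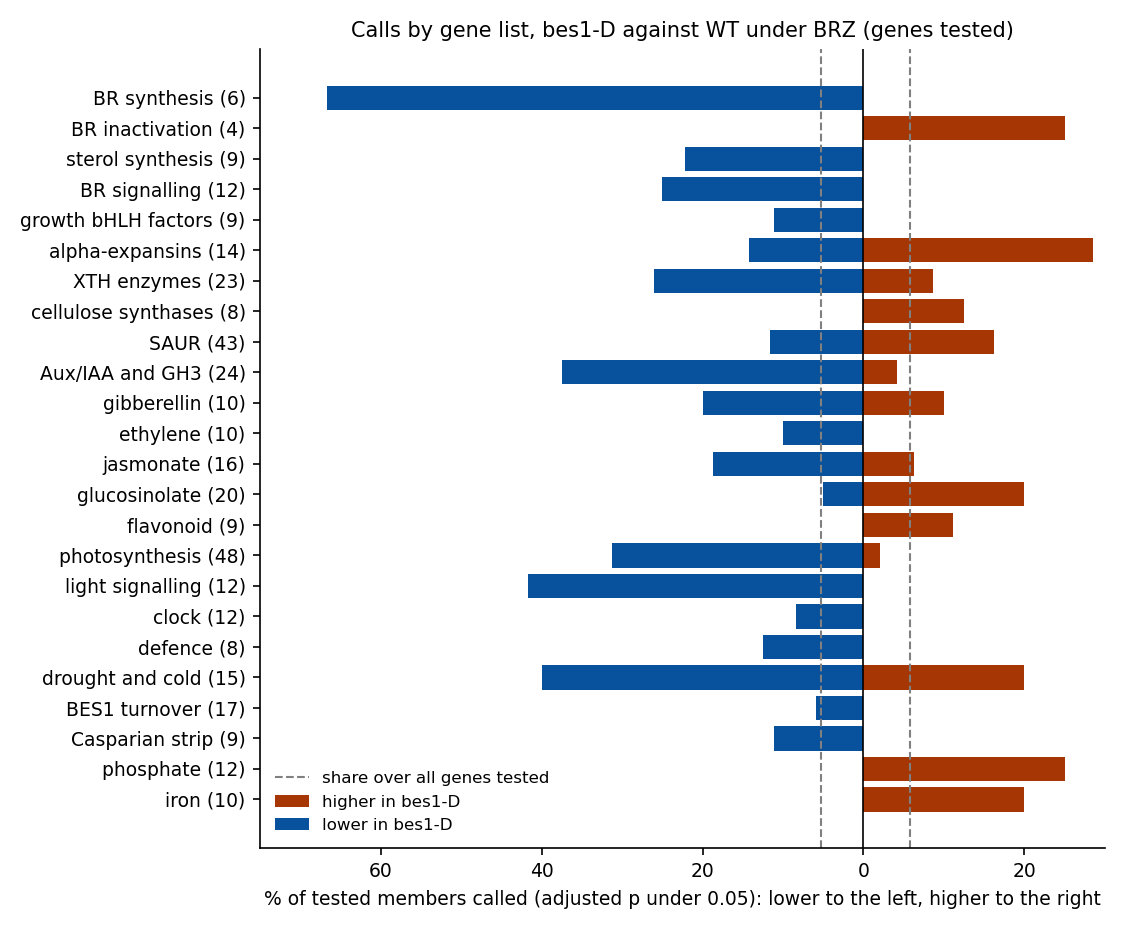
Percentage of the tested members of each gene list that were called higher or lower in *bes1-D* than in WT under BRZ (limma, adjusted p under 0.05). The dashed lines give the share over all genes tested, 5.76% higher and 5.3% lower. The BR synthesis list has 4 of 6 members lower and 0 higher, and the drought and cold list has members called in both directions.

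Several light regulators and most antenna genes of photosynthesis fell. Over all genes tested, 5.3% were lower and 5.76% higher. Of 12 light regulators, 5 fell and 0 rose, with a median log2 fold change of −0.57. *PIF5*, a growth-promoting bHLH factor, had 199, 163 and 154 normalized reads in WT and 61.6, 50.7 and 47.2 in *bes1-D* (log2 fold change −1.68, SE 0.19, adjusted p = 3.1e-06), and *PIF3* had 86.4, 85.5 and 85.9 and 39.5, 23.8 and 31.1 (log2 fold change −1.45, SE 0.23, adjusted p = 0.000269). *HFR1* and *PAR1*, inhibitors of shade growth, fell by 2.23 and 0.94 on the log2 scale, and *GATA2*, a promoter of photomorphogenesis, fell from 44.6, 22.8 and 52.6 to 16.5, 11.6 and 10.1. Of 21 light-harvesting antenna genes, 13 fell and 0 rose, with a median of −0.59. *LHCB2.3* had 1231, 896 and 1361 in WT and 407, 288 and 280.3 in *bes1-D* (log2 fold change −1.83, SE 0.17, adjusted p = 1.82e-07). *LHCB2.1*, *LHCB2.2* and *LHCB1.1* had log2 fold changes of −1.21, −1.16 and −1.27, but LHCB1 and LHCB2 genes are near-identical copies, and the split of reads among them is uncertain. Of 13 photosystem I genes 2 fell and 0 rose, 0 of 10 photosystem II genes were called, and 1 of 4 Rubisco small subunit genes, which are also close copies, rose.

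The summed level of 5 green tissue markers was 64954 to 67045 normalized reads in WT and 39441 to 45227 in *bes1-D*, and 2 of the 5, *LHCB1.1* and *LHCB2.1*, fell. The other 3 (*CA1*, *RBCS1A* and *RCA*) did not pass the test. In whole seedlings, fewer cells of a type and less RNA per cell cannot be told apart, and the part of tissue make-up in these results was not tested. The 8 root markers summed to 546 to 739 in WT and 443 to 466 in *bes1-D*, with 3 of 7 tested (*EXPA7*, *COBL9* and *PRP3*) lower. The 4 guard cell markers summed to 241 to 251 and 179 to 228, with 1 of 2 tested lower. Over all genes tested, 5.3% were lower. The 7 vascular markers summed to 898 to 1087 and 867 to 931, with 0 called. The 11 seed storage markers stood at 24.3, 290.5 and 69.8 in WT, where replicate 2 was apart, and at 8.13 to 16.0 in *bes1-D*, and the 1 of them tested, *OLEO1*, was lower (log2 fold change −2.35) although its groups overlapped. Depth estimated from low values was 2.11 × 10⁶ to 4.69 × 10⁶ reads per library in WT and 2.99 × 10⁶ to 4.65 × 10⁶ in *bes1-D*, and correlations across genes were 0.959 to 0.969 within groups and 0.927 to 0.950 between them.

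Drought, abscisic acid (ABA) and cold genes were often called, with 3 of 15 tested higher and 6 lower. That was 60% called, against 11.1% over all genes tested, and the median log2 fold change was −0.72. *RD26*, a NAC factor of the drought response, had 588, 605 and 599 normalized reads in WT and 212, 274 and 225 in *bes1-D* (log2 fold change −1.34, SE 0.14, adjusted p = 1.39e-06). *COR15B*, which encodes a chloroplast protein of cold protection, had 82.8, 129 and 102 and 21.6, 19.2 and 31.2 (log2 fold change −2.09, SE 0.25, adjusted p = 6.79e-06). *RD29A*, *COR15A*, *KIN2* and *ABI1* also fell. *RD22* moved the other way, with 406, 367 and 434 in WT and 1108, 921 and 971 in *bes1-D* (log2 fold change 1.31, SE 0.13, adjusted p = 9.19e-07). So did the dehydrin genes *ERD10*, with 1159, 1214 and 1067 and 2206, 2179 and 2111 (log2 fold change 0.92, SE 0.12, adjusted p = 2.88e-05), and *COR47*. Both dehydrin genes lie in the stretch of chromosome 1 described below, where effects of the mutation and of linked sequence cannot be told apart.

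Jasmonate and gibberellin genes were called in both directions, in larger shares (25% and 30%) than the 11.1% over all genes tested. Some of these calls did not hold when a library was left out: *JAZ9* lost it in 5 of the 6 fits, *RGL3* in 2 and *GAI* in 1. In jasmonate synthesis and response, 1 of 16 rose and 3 fell. *AOC2*, an allene oxide cyclase, had 230.3, 198 and 253 normalized reads in WT and 489, 447 and 522 in *bes1-D* (log2 fold change 1.1, SE 0.15, adjusted p = 2.4e-05), whereas *LOX2*, a lipoxygenase of the same pathway, had 211, 207 and 209.5 and 76.2, 59.3 and 111 (log2 fold change −1.39, SE 0.20, adjusted p = 6.49e-05). The repressor genes *JAZ3* and *JAZ9* fell by 1.47 and 0.58 on the log2 scale. In the gibberellin list, 1 of 10 rose and 2 fell, and all 3 encode DELLA repressors: *RGL1* had 39.2, 34.6 and 37.4 in WT and 75.8, 70.9 and 82.3 in *bes1-D* (log2 fold change 1.02, SE 0.22, adjusted p = 0.00344), and *GAI* and *RGL3* fell by 0.64 and 1.21. The growth bHLH list had 1 of 9 tested genes called, the same 11.1% as over all genes. That gene, the BR-induced *BEE3*, was lower (156, 105 and 125 in WT, 93.7, 31.3 and 73.3 in *bes1-D*, log2 fold change −1.07, SE 0.28, adjusted p = 0.017). Without one library its log2 fold change ran from −1.39 to −0.61.

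In the nutrient and metabolite lists, 3 of 12 phosphate starvation genes rose and 0 fell, and 2 of 10 iron genes rose and 0 fell. Calls made up 25% of the phosphate, 20% of the iron and 25% of the glucosinolate genes tested, against 11.1% over all genes. *IPS1*, a noncoding RNA of phosphate starvation, had 48.9, 20.5 and 41.7 normalized reads in WT and 138, 101.1 and 171 in *bes1-D* (log2 fold change 1.91, SE 0.27, adjusted p = 6.37e-05), and *SQD2* and *PHO1;H1* rose by 0.70 and 0.71 on the log2 scale. *FER3*, a ferritin gene, had 234, 274 and 286 and 419.5, 540.3 and 523 (log2 fold change 0.895, SE 0.15, adjusted p = 0.000342), and *NAS4* rose by 0.79. Of 20 glucosinolate genes, 4 rose and 1 fell: *MYB28*, the regulator of the aliphatic branch, had 52.1, 49.5 and 72.5 in WT and 100.5, 132 and 135 in *bes1-D* (log2 fold change 1.07, SE 0.21, adjusted p = 0.00155), while *CYP79B3* of the indole branch fell by 0.89. *LDOX* was the 1 of 9 flavonoid genes called, and it rose. The clock list had 1 of 12 lower (*PRR7*) and 0 higher, the defence list 1 of 8 lower (*WRKY40*) and 0 higher, the Casparian strip list 1 of 9 lower (*SGN1*) and 0 higher, and the list of genes of BES1 turnover 1 of 17 lower (*MAX2*) and 0 higher. In that order, flavonoid list first, the shares called were 11.1%, 8.33%, 12.5%, 11.1% and 5.88%. These were near or under the 11.1% over all genes tested, so these lists did not stand out. A further list held 4 genes used for RT-qPCR, chosen on libraries of this series without BRZ and so no independent evidence. Of these, *AT3G05170* rose, *QQS* fell, *CYP21-2* had 13.3, 12.9 and 19.96 in WT and 36.3, 22.1 and 27.1 in *bes1-D* without passing the test (log2 fold change 0.85, SE 0.33, adjusted p = 0.114), and *CASP5* was below the minimum mean.

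Of 86 called genes named by rule, 68 kept the call in each of the 6 fits that left out a library, wherever they were still tested, and 18 lost it at least once. *BRI1*, *JAZ9*, *SGN1* and *WRKY40* lost it in 5 of the 6 fits, with adjusted p of up to 0.125, 0.174, 0.226 and 0.146. *BRI1* and *WRKY40* kept it only without *bes1-D* replicate 3, and *JAZ9* and *SGN1* only without *bes1-D* replicate 1. *EXPA16*, *LDOX*, *NAS4*, *PHO1;H1* and *SMT3* lost it in 4 fits, with adjusted p of up to 0.109, 0.138, 0.147, 0.194 and 0.145. *BEE3*, *EXPA7*, *PRR7*, *SQD2* and *UGT74C1* lost it in 3 fits (up to 0.094, 0.163, 0.0649, 0.111 and 0.0801), *CYP83A1* and *RGL3* without WT replicate 2 or 3 (up to 0.0814 and 0.0644), *GAI* without WT replicate 3 (0.0981) and *MAX2* without WT replicate 1 (0.0515). Among these 6 fits, calls of the named genes were lost most often without WT replicate 2 or 3 (14 genes each) and least often without *bes1-D* replicate 1 (2 genes). Over the other settings of the fit, 30 of the 86 kept the call in all, wherever they were still tested. With no filter on low values 54 named genes lost it, and with eBayes without a trend 21 did. *BR6OX2*, *ROT3*, *BAS1* and *BEH2* each lost it in 1 of those settings, and *DWF4*, *CPD* and *BEH1* in 0.

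The same genotypes without BRZ share no library with this comparison. There, 1224 of 16270 genes (7.52%) were called, 665 higher and 559 lower in *bes1-D*, or 395 and 719 with median-of-ratios size factors. Its count was 739 without WT replicate 2 and 695, 815 and 757 without *bes1-D* replicates 2, 3 and 4. Over 15981 genes tested in both, 605 were called in both, 33.9% of the 1787 called with BRZ and 49.7% of the 1217 called without, and 603 of the 605 had the same direction. Of the genes called with BRZ, 86.7% had the same sign without it, against 62.8% of all genes. The genes higher with BRZ had a median log2 fold change of 0.73 with it and 0.29 without, and those lower had −0.93 and −0.43. These genes were chosen for their values with BRZ, so the medians with and without it are given as a description.

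Among BR synthesis genes, *CPD*, *DWF4* and *BR6OX2* also fell without BRZ. *CYP90D1*, which did not pass the test with BRZ, fell without it, whereas *ROT3* (24.7 normalized reads in WT and 19.4 in *bes1-D*) did not pass the test there. *CPD* averaged 294 normalized reads in WT and 111 in *bes1-D* without BRZ, against 494 and 111 with it, and *DWF4* averaged 106 and 31.4 without BRZ against 229 and 36.7 with it. In each, WT was higher with BRZ than without while *bes1-D* stayed within 1.5-fold, but the interaction of genotype and BRZ did not pass the test, with an adjusted p of 0.0852 for *CPD* and 0.172 for *DWF4* in limma.

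That interaction was called for 39 of 16288 genes (0.239%), 28 with a *bes1-D* minus WT difference that was higher with BRZ and 11 with one that was lower, and 2229 genes had an unadjusted p under 0.05. For all 28, the WT mean was lower with BRZ than without, with a median ratio of 0.634, while that of *bes1-D* was 1.23. The ratio lay within 1.5-fold for 25 of the 28 in *bes1-D* and for 9 in WT. For all 11, the WT mean was higher with BRZ, with a median ratio of 2.09 against 0.776 in *bes1-D*, and it lay within 1.5-fold for 9 of the 11 in *bes1-D* and for 2 in WT. These genes were chosen for the interaction in these same groups, which favours unlike ratios. The ratios are given as a description, and those of all genes were not computed. The number called ran from 10 without WT BRZ replicate 3 or untreated *bes1-D* replicate 3 to 197 without *bes1-D* BRZ replicate 1. It was 17 and 23 without untreated WT replicates 2 and 4, 14 without untreated *bes1-D* replicate 2, and 20 and 21 without *bes1-D* BRZ replicates 3 and 5.

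*AT1G66100*, which encodes a thionin, an antimicrobial peptide, had the lowest interaction p. It averaged 621 normalized reads in WT and 642 in *bes1-D* without BRZ. With BRZ it had 223, 189 and 197 in WT and 925, 859.7 and 739 in *bes1-D* (interaction 1.997 on the log2 scale, SE 0.15, adjusted p = 9.05e-08), so that the means were close without BRZ and the groups separate with it. *AT1G12080* averaged 1724 and 1741 without BRZ and 1008 and 2259 with it (interaction 1.16 on the log2 scale, SE 0.16, adjusted p = 0.00158). *PATL2*, a patellin of membrane trafficking, averaged 2344 and 2055 without BRZ and 1308 and 2306 with it (interaction 1.02 on the log2 scale, SE 0.15, adjusted p = 0.00284). The members of gene lists called in this direction were *ERD10*, *IPS1*, *IAA19* and *SAUR15*, with interaction log2 values of 0.82, 2.72, 1.92 and 1.81.

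In the other direction, *XTH15* averaged 102 normalized reads in WT and 53.7 in *bes1-D* without BRZ, and 304 and 57.9 with it (interaction −1.46 on the log2 scale, SE 0.20, adjusted p = 0.00163). *AT3G55240* averaged 95.96 and 48.2 without BRZ and 291 and 49.6 with it (interaction −1.56 on the log2 scale, SE 0.25, adjusted p = 0.005). *AT5G01740*, of the nuclear transport factor 2 family, averaged 351 and 70.9, then 941 and 79.5 (interaction −1.25 on the log2 scale, SE 0.21, adjusted p = 0.00943), and *GH3.5* averaged 119 and 47.8, then 279 and 48.3 (interaction −1.23 on the log2 scale, SE 0.25, adjusted p = 0.03). In each of these genes the WT mean was higher with BRZ than without, and the *bes1-D* mean stayed low.

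**Figure D4:**
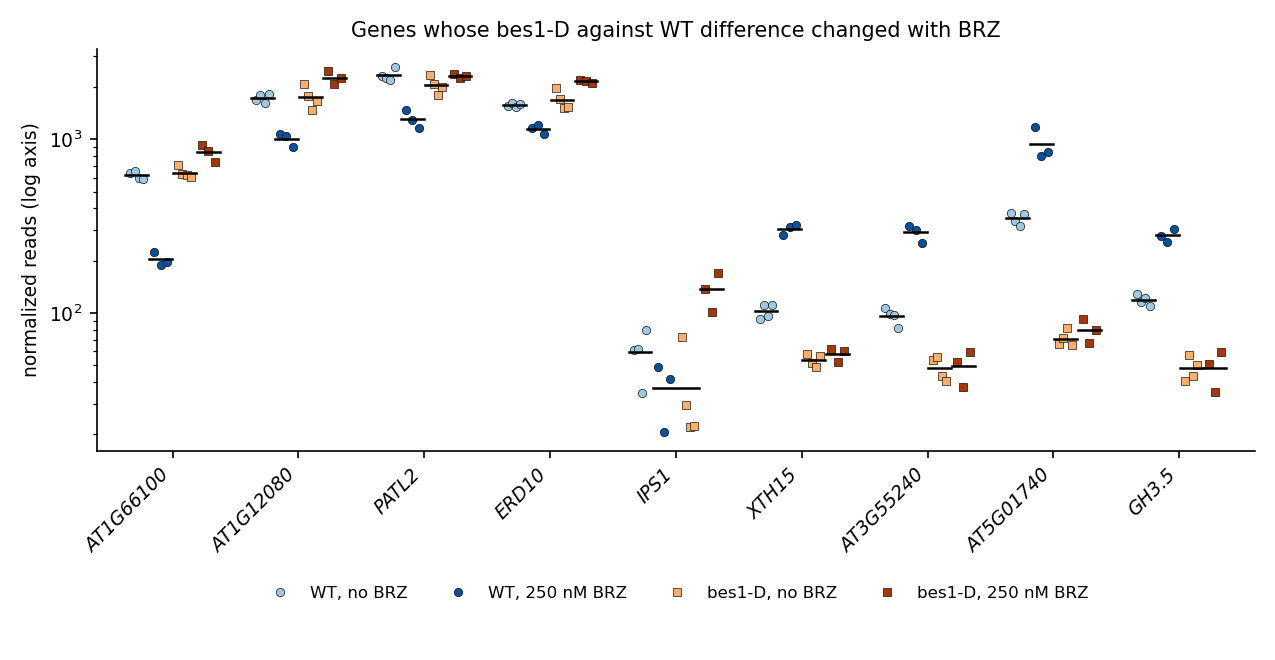
Normalized reads (log axis) of 9 genes whose *bes1-D* against WT difference changed with BRZ, in the 4 groups. Each point is a library and each bar the group mean. WT with BRZ stands apart from the other groups in most of these genes, below them for *AT1G66100* and above them for *XTH15*, *AT3G55240*, *AT5G01740* and *GH3.5*.

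Calls were denser on one stretch of chromosome 1. By chromosome, 12.6% of the tested genes were called on chromosome 1 and 10.9%, 10.6%, 10.1% and 10.4% on chromosomes 2 to 5. In bins of 200 annotated genes, the 8 bins after that of *BES1* (bins 13 to 20 of 44) each had a share called above 1.5 times that of all genes, a limit chosen after the values were seen. In them 164 of 773 genes (21.2%) were called, 79 higher and 85 lower, against 10.7% on the rest of chromosome 1 (3.88% to 22.1% by bin) and 10.55% (1637 of 15521) outside the stretch. The bin that holds *BES1* itself (bin 12) had 8.04% called. Bins 33 and 35, apart from the stretch, also passed the limit, with 18.75% and 22.1% called with BRZ and 18.9% and 10.6% without it. Without BRZ, in other libraries, 16.1% of the genes of the stretch and 7.10% of those outside it were called. The mutation had been moved into Col-0, and an effect of the mutation and one of linked differences in sequence cannot be told apart here. Of the largest changes, 7 of 10 rises and 4 of 10 falls lay in the stretch, among them *ECS1* and *WAK2*, as did *EXPA11*, *XTH30*, *LHCB1.1*, *LHCB1.3*, *PSAK*, *ERD10*, *COR47* and *PATL2*. No tested gene of BR synthesis, inactivation or signalling and no tested light regulator, called or not, lay there.

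**Figure D5:**
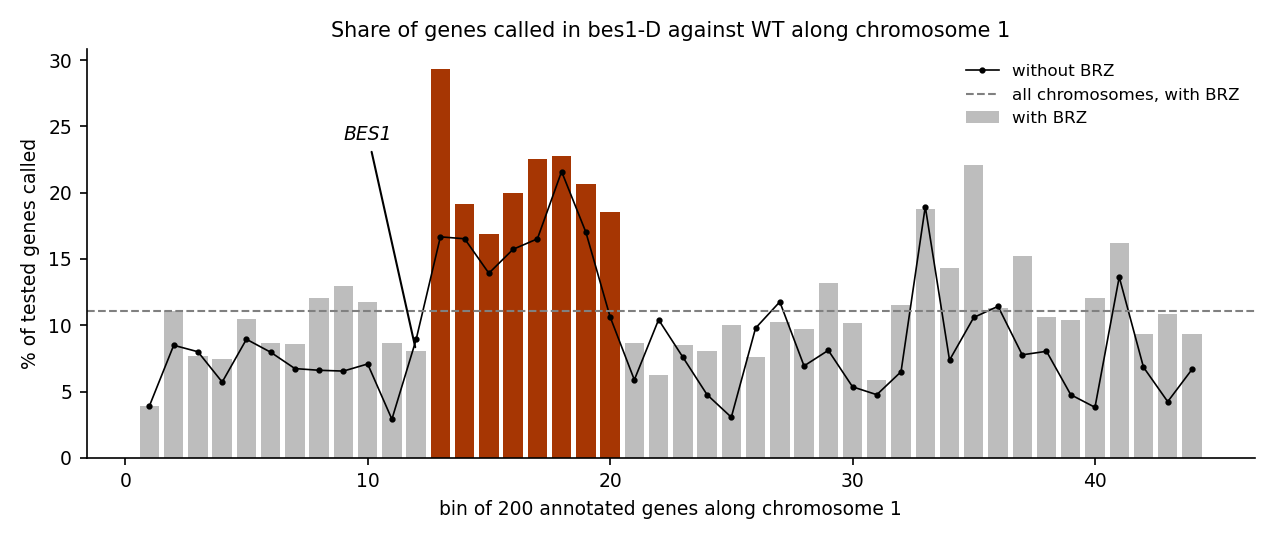
Share of tested genes called in *bes1-D* against WT (percent, bars with BRZ and black line without) in successive bins of 200 annotated genes along chromosome 1. The coloured bars are the 8 bins after that of *BES1*, with 16.9% to 29.3% of genes called with BRZ, and the dashed line is the 11.1% over all chromosomes.

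Outside the stretch, and chosen after their values were seen, the largest falls not yet named included *AT5G22580*, with 1832, 1505 and 1584 normalized reads in WT and 150.4, 190.2 and 147 in *bes1-D*, and *AT4G01870*, with 291, 247 and 268 in WT and 33.3, 25.3 and 31.2 in *bes1-D*. *MYB55*, a MYB factor gene, had 49.4, 56.5 and 49.4 in WT and 7.87, 4.33 and 4.03 in *bes1-D*. Among the rises, *RGF9*, which encodes a root meristem growth factor peptide, had 46.7, 19.6 and 38.4 in WT and 285, 146 and 146 in *bes1-D*, and *PS2*, a pyrophosphatase gene of phosphate starvation, had 4.23, 3.70 and 2.90 in WT and 14.4, 17.7 and 54.2 in *bes1-D*. The groups did not overlap in any of these genes, as the rule for choosing them (called genes without overlap) required.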

How the data were processed

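Whole seedlings of WT, *baf1* and *bes1-D* had been sequenced with QuantSeq (50-bp single-end reads), and the 22 libraries were assigned to groups by their labels. The authors mapped the trimmed reads to the TAIR10 build in the BlueBee pipeline of Lexogen, and the submitters' processing notes also list STAR, HTSeq and edgeR. They deposited a single table named for TMM normalization, with a normalized read signal for 32833 genes. Its signal values are not whole numbers, and its column totals (3633741 to 3636541) differ by 0.077%, so no count model was fitted and depth was estimated by inverting a quantile adjustment for 300 low genes (dispersion 0.05, tested on simulated data with an error of up to 0.533%). The PoissonSeq package named in the methods was not used, and 0 per-sample columns were left out.

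Each pair of groups was fitted on its own libraries with limma 3.58.1 in R 4.3.3 (moderated with a trend of variance on mean) on log2(value + 1). Genes averaging under 10 were not tested. A two-sided Benjamini-Hochberg adjusted p under 0.05 was the threshold. Fold changes on this scale understate the change of low genes, and folds called "at least" are against a floor of 3 normalized reads per library. The interaction was fitted over 4 groups. An exact permutation test of 3 against 3 libraries has 20 arrangements and cannot go below p = 0.1, so none is given per gene. No source states whether libraries came from separate cultures, so p-values measure only the spread between these libraries, which may be technical.

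On simulated data (16211 genes, an assumed dispersion of 0.05), 27.7% of 94 genes with a log2 change of 1 and 95.9% of 97 with a change of 2 were recovered, with 4 false calls. Among the genes tested, only these were changed in the simulation, whereas 11.1% of genes were called in the comparison. The adjusted p depends on that share, so these percentages are not the sensitivity of the comparison.

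Genes were named by rule: *BES1*, *BAF1* and 4 RT-qPCR genes, the 10 largest rises and 10 largest falls among called genes without overlap, every tested BR synthesis and inactivation gene, up to 4 called members with the lowest adjusted p of each other list, and 3 interaction genes in each direction. Other list members called, and genes outside the rule, were named after their values were seen. The comparison, its 25 lists and the tests were chosen with earlier results of these data known, and no list is independent evidence. Names, gene order and sequences came from the RefSeq annotation of TAIR10.1, which matched 32548 identifiers. The authors mapped to TAIR10, and the coordinates given are those of TAIR10.1. Alternatives covered the pseudocount (0.1, 5), the filter (none, 50), size factors, the trend, a fit to all libraries, a replicate block, fold limits, chromosome 1 and leaving out each library. Tables and plots were made with Python 3.11.15, pandas 2.3.3, scipy 1.17.1 and matplotlib 3.10.9.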

Additional observations from a re-analysis of the deposited data

Results flagged for a closer look

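The interaction of genotype and BRZ passed the test for 39 genes, meaning that the difference between *bes1-D* and WT was not the same with and without BRZ. On the log2 scale it was 1.997 for *AT1G66100*, 1.16 for *AT1G12080*, 1.02 for *PATL2*, 0.82 for *ERD10* and 2.72 for *IPS1*, and it was −1.46 for *XTH15*, −1.23 for *GH3.5*, −1.56 for *AT3G55240* and −1.25 for *AT5G01740*.

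In the untreated groups of 4 libraries, 14 of 190 gene and group combinations had a library far from the other 3 by Dixon's criterion, and chance flags about 1 in 20. WT replicate 5 stood apart for *BES1* (357 normalized reads), *BEE3* (33.6), *LOX2* (256), *CYP83A1* (244) and *LDOX* (34.4), and WT replicate 4 for *EXPA7* (39.1). Replicate 1 of *bes1-D* stood apart for *MRD1* (568) and *IPS1* (73.0), replicate 2 for *AT1G27580* (189), replicate 4 for *BRI1* (209) and replicate 3 for *COR15B* (65.4). Replicate 3 also had the single values above 0 for *AT1G63360* (9.52), *AT2G04885* (0.83) and *ACS11* (0.985), of which the last 2 are under 3 reads. Groups of 3, such as the BRZ groups, are not tested by this criterion.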

How the results depend on the processing

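The count of 1801 genes under BRZ was 251 with no filter on low values, which tested 32833 genes, and 586 with eBayes without a trend. It ran from 994 to 2083 when one library was left out, and the looser criterion gave 2351 in place of 3973 genes at a fold change over 1.5. The other settings of the fit gave 1604 (minimum mean 50) to 2403 (fit to all 22 libraries). In the same fit, 1637 genes were left without the chromosome 1 stretch, 1265 without chromosome 1 and 1471 at a fold change over 1.5, the first and last chosen after seeing the data. Without BRZ, the count of 1224 was 452 with no filter and 694 without a trend, and 695 to 1786 when one library was left out. For the interaction, 39 became 6 with no filter, 5 without a trend, 2229 at an unadjusted p under 0.05, and 10 to 197 when one library was left out. Why they moved was not tested. Share of higher calls under BRZ was 52.1%, and 44% with median-of-ratios size factors.

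Same-numbered libraries (replicates 1 and 3) had deviations that correlated at 0.251 and −0.045, and without BRZ at 0.145, −0.006 and −0.006. Libraries with different numbers correlated at −0.271 to 0.167 with BRZ and at −0.13 to 0.1 without it. The replicate 1 pair was the highest in both comparisons. With so few shared numbers, this check cannot tell whether the numbers pair the samples. With the replicate block, 1765 genes were called under BRZ, 2238 without BRZ and 27 for the interaction, and the log2 fold change of *BAF1*, which was not called, was 0.026 in place of −0.20. That of *UGT73C5*, also not called, ran from −0.024 (without *bes1-D* replicate 5) to 0.547 when one library was left out, in place of 0.22. Over 94 tested genes named by rule and all settings, 1127 of 1284 values kept their direction and side of the threshold, 150 lost the call, 5 gained it and 2 changed sign. The shallowest library had about 2.11 × 10⁶ reads, and 27.7% of log2 changes of 1 were recovered in a simulation with far fewer changed genes. A gene not called is not shown to be unchanged.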
